A study of Mus musculus with 2 samples.

Results

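The miR-29 family of the mouse comprises 4 microRNA genes, Mir29a, Mir29b-1, Mir29b-2 and Mir29c. They were taken by symbol from the 2202 microRNA genes counted in gastrocnemius, the large calf muscle, and all 4 were found, each with a count in both libraries. The muscle came from male B6CASTF1/J mice, the first-generation cross of C57BL/6J and CAST/EiJ, at 14 days of age, without treatment or further genetic change named in the labels. The study holds 1 group of 2 biological replicates with 1 small RNA library each, in a size range under 30 nt, and no second tissue, age, sex or treatment. The donor identifier is the same for both replicates, and their descriptions speak of several males. The labels leave unsaid whether animals were pooled for a replicate, so every SD below is the spread between these 2 samples and may be partly technical.

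A microRNA is cut from a hairpin precursor, and its mature strand guides the Argonaute protein to messenger RNAs that pair with the seed, the bases 2 to 8 of the microRNA. The miR-29 family is known for lowering the output of collagen genes and other genes of the extracellular matrix, and it falls in fibrosis of heart, lung, kidney and muscle. In skeletal muscle it is also known to rise as myoblasts differentiate, in part by acting on the repressor Yy1. The mature strand best known to act is the 3p strand, which comes from the 3′ arm of the hairpin. The 4 genes form a pair of clusters, one with Mir29a and Mir29b-1 and one with Mir29b-2 and Mir29c, and the genes of a cluster are known to come from a common primary transcript.

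The family is defined by its mature sequences, which are shown here because they set which reads a counting program can give to 1 locus. They are the mouse RefSeq sequences of the mm10 build, written 5′ to 3′ with the seed in capitals.
miR-29a-3p: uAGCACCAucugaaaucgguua
miR-29b-3p: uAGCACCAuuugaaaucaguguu
miR-29c-3p: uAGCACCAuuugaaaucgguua
The seed AGCACCA was found at 4 loci, the 4 miR-29 genes, and in no other of the 1738 mature entries of that table. The sequence of miR-29b-3p is the same from Mir29b-1 and from Mir29b-2. Positions are counted from 1 at the 5′ end. Between miR-29a-3p and miR-29c-3p there was 1 difference over 22 bases, C10U. From miR-29c-3p to miR-29b-3p there were 3, written G18A, U21G and A22U, so these sequences are identical over the first 17 bases. From miR-29a-3p to miR-29b-3p there were 4, C10U, G18A, U21G and A22U.

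The strands from the other hairpin arm, called 5p, have no seed in common with the 3p strands and differ between the genes. They are shown with their own seeds in capitals because they are what distinguishes the miR-29b loci.
miR-29a-5p: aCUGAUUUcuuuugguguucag
miR-29b-1-5p: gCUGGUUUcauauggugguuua
miR-29b-2-5p: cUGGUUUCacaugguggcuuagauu
miR-29c-5p: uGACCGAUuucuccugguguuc
Each deposited count is for a whole hairpin gene with both arms together, so it is not known how the counts of any member divide between 3p and 5p. Of the 5p strands, only that of Mir29b-2 had a seed found elsewhere in the table, in mmu-miR-6338.

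The hairpins are shown with every run of at least 20 bases that another miR-29 hairpin also holds in capitals.
Mir29a: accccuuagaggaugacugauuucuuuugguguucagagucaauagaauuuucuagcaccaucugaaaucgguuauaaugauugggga
Mir29b-1: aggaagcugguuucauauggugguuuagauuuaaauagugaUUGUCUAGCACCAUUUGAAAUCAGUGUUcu
Mir29b-2: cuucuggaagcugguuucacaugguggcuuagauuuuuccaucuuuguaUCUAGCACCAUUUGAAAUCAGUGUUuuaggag
Mir29c: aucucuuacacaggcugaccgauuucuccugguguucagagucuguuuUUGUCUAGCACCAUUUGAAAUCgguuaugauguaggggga
The longest run that Mir29b-1 and Mir29b-2 share is 25 bases and spans the whole of miR-29b-3p. Mir29b-1 and Mir29c share 22 bases, which end within the 3p strand, and Mir29b-2 and Mir29c share 19. Mir29a shares at most 14 bases with another member, Mir29c, and has no run in capitals. A read of miR-29b-3p therefore matches both miR-29b loci, and a read with several matching loci was given to no gene. Replicate 1 had 44.0% of its reads in that class and replicate 2 had 52.1%. The tables do not give how many of them were miR-29 reads.

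Levels are given as CPM (counts-per-million), the count of a gene scaled to the sum of all counts assigned to microRNA genes on their own strand, and intervals of single libraries are 95% Wilson intervals that cover counting error only. Replicate 1 held 2743657 assigned counts and replicate 2 held 2211254. A gene with 3 counts, the limit that a count of 0 allows, stands at 1.09 CPM in the first library and 1.36 CPM in the second. Of the 2202 genes, 629 had a count in at least 1 library and 258 reached 10 CPM in both, with a median of 260 CPM among those 258. As a check of the tissue label, the skeletal muscle markers held 6.95% and 6.92% of counts, nearly all of it from the single gene Mir206 at 68288 and 67909 CPM, while Mir486 was at 611 CPM by mean and the 4 lowest of the 9, Mir133b, Mir133a-1, Mir1a-1 and Mir133a-2, lay between 1.82 and 26.2 CPM. Of the other cell types, the marker of endothelium, the single gene Mir126a, held 9.81% and 8.04%. Markers of smooth muscle held 3.67% and 3.49%, mostly from Mir143 at 34797 CPM by mean, with Mir145a at 1015 CPM. Those of connective tissue held 2.28% and 2.08%, mostly from Mir21a at 16074 CPM by mean. The others there were Mir214 at 4223, Mir140 at 1442, Mir199a-2 at 40.7 and Mir199a-1 at 1.32 CPM. Leukocyte, red cell, neuron, glia and liver markers each held at most 0.105%. Mir1a and Mir133a have more than 1 gene each among these markers, and reads that fit several loci were given to no gene. Where such genes share a mature sequence, a low count does not show that the microRNA was scarce. For Mir133b, at 26.2 CPM, no other locus with its annotated mature sequence was found by exact match, so this limit is not shown to cover it. The marker shares therefore hold for assigned counts only. Fewer cells of a type and less RNA per cell cannot be told apart in such bulk samples.

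Mir29a was the most abundant member by assigned counts. It had 594 counts in replicate 1 and 666 in replicate 2, which is 216 CPM (interval 199.8 to 235) and 301 CPM (279 to 325), a mean of 259 ± 59.9 CPM (SD, n = 2). Replicate 2 was the higher, and the intervals of the replicates did not overlap. By mean level Mir29a was number 130 of the 629 detected genes, number 137 in replicate 1 and 119 in replicate 2. Its level lies next to the median of the 258 genes. The gene is ENSMUSG00000065610.1, on the minus strand of chromosome 6 from 31062660 to 31062747 in mm10, and no other annotated gene overlaps its 88 bases.

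Mir29c was the second member, with 341 and 294 counts, which is 124 CPM (112 to 138) in replicate 1 and 133 CPM (119 to 149) in replicate 2, a mean of 129 ± 6.13 CPM. The replicates lay within each other's intervals. Mir29c was number 169 by mean level. The ratio of Mir29a to Mir29c was 1.74 (95% exact interval 1.52 to 2.00) in replicate 1 and 2.27 (1.97 to 2.61) in replicate 2, so Mir29a was the higher in both. The gene is ENSMUSG00000065548.1, on the plus strand of chromosome 1 from 195037547 to 195037634.

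The miR-29b loci had few counts. Mir29b-1 had 35 and 22 counts, which is 12.8 CPM (9.17 to 17.7) in replicate 1 and 9.95 CPM (6.57 to 15.1) in replicate 2, a mean of 11.4 ± 1.99 CPM. The replicates overlapped within counting error, and replicate 2 lay just under 10 CPM. The gene is ENSMUSG00000065604.2, on the minus strand of chromosome 6 from 31063023 to 31063093.

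Mir29b-2 was the lowest member, with 13 counts in replicate 1 and 2 in replicate 2. These are 4.74 CPM (2.77 to 8.11) and 0.904 CPM (0.248 to 3.30), a mean of 2.82 ± 2.71 CPM. The 2 counts of replicate 2 are a detection, but they lie under the limit of 3 counts that a count of 0 allows. The level of this locus therefore rests mainly on replicate 1. The gene is ENSMUSG00000065412.3, on the plus strand of chromosome 1 from 195037040 to 195037120. Because miR-29b-3p reads fit both loci, the values of Mir29b-1 and Mir29b-2 do not show how much mature miR-29b the muscle held. The order Mir29a, Mir29c, Mir29b-1, Mir29b-2 was the same in both libraries, and the intervals of neighbours in this order did not overlap within either library.

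**Figure D1:**
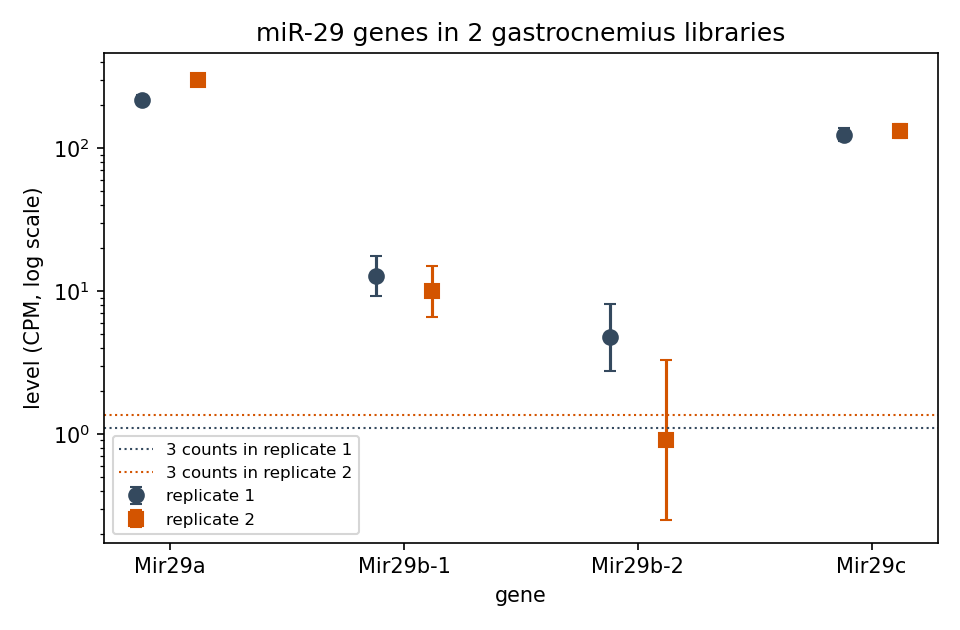
Level of the 4 miR-29 genes (CPM, log scale) in replicate 1 (circles) and replicate 2 (squares), with 95% Wilson intervals as bars and the level of 3 counts in each library as dotted lines. Mir29a and Mir29c lie above 100 CPM in both libraries, Mir29b-1 near 10 CPM, and Mir29b-2 of replicate 2 lies under the dotted lines.

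The 4 genes together had 983 counts in replicate 1 and 984 in replicate 2. That was 0.0358% of assigned counts (0.0337 to 0.0381) and 0.0445% (0.0418 to 0.0474), a mean of 0.0402% ± 0.00613 (SD, n = 2). Mir29a made up 60.4% of the family's counts in replicate 1 and 67.7% in replicate 2. Mir29c made up 34.7% and 29.9%, Mir29b-1 3.56% and 2.24%, and Mir29b-2 1.32% and 0.203%. Nearly all assigned counts of the family thus came from the pair of loci whose 3p sequence lies at 1 locus each. Those sequences differ by C10U alone, and the sources used here do not say whether a mismatch was allowed in mapping. If it was, reads of miR-29a-3p and miR-29c-3p could also have matched both loci and been given to no gene, so the levels of Mir29a and Mir29c, their ratio and the shares of the family hold for assigned counts only. None of the 4 genes had a count on the opposite strand in either library.

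**Figure D2:**
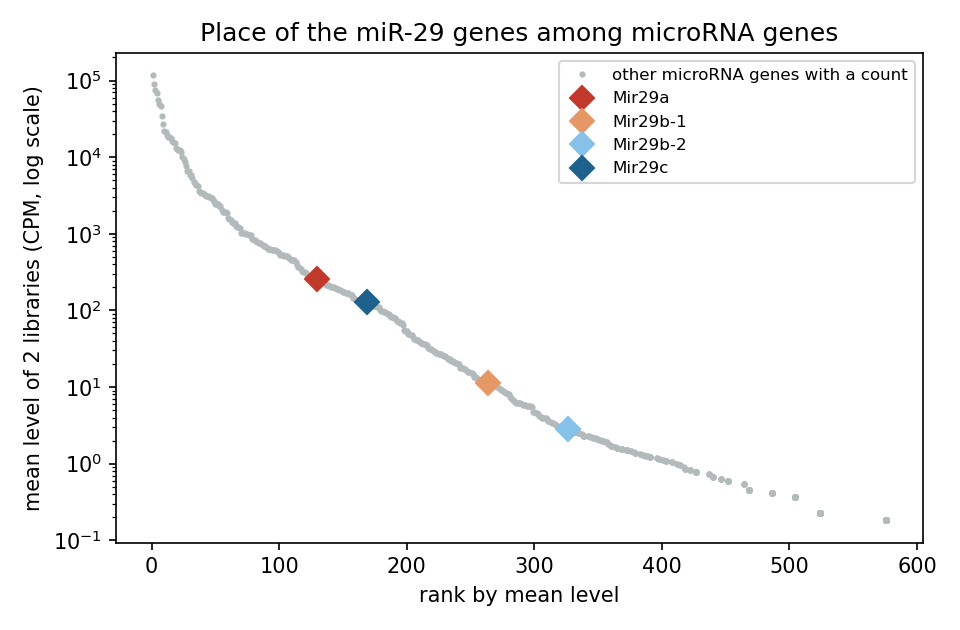
Mean level over 2 libraries (CPM, log scale) of the microRNA genes with a count, by rank, with the miR-29 genes as diamonds. Mir29a and Mir29c lie at ranks 130 and 169, Mir29b-1 at 264 and Mir29b-2 at 326.

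The cluster on chromosome 6 spans 434 bases, with 275 bases between Mir29a and Mir29b-1. Its summed level was 229 CPM and then 311 CPM in the replicates, a mean of 270.2 ± 57.9 CPM. The cluster on chromosome 1 spans 595 bases, with 426 bases between Mir29b-2 and Mir29c, and its summed level was 129 CPM and 134 CPM, a mean of 131 ± 3.42 CPM. The chromosome 6 cluster was the higher in both libraries, and the replicates differed more there than on chromosome 1.

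The surroundings of the clusters differ. In the GENCODE vM21 annotation of mm10, Mir29b-2 and Mir29c both lie within the long non-coding gene A330023F24Rik (194976375 to 195037904, plus strand), in an exon of 1 of its 4 transcripts. On the other strand both overlap an exon of 1 of the 4 transcripts of Cd46 (195036826 to 195092249), which encodes a regulator of complement. On chromosome 6, the far end of the Mir29b-1 hairpin overlaps the exon of the long intergenic non-coding gene Gm27019 (31063092 to 31063495) on the same strand, and Mir29a overlaps no gene. The nearest protein-coding genes are Klf14, a zinc finger factor, at 103582 bases and Mkln1 at 335642 bases from the chromosome 6 cluster. Beside those that overlap, the chromosome 1 cluster has Cd34, a surface protein of endothelial and progenitor cells, at 75761 bases and Cr1l, a complement regulator, at 59748 bases.

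Genes of 1 cluster were far apart in assigned counts. Mir29a had 17.0 times the counts of Mir29b-1 in replicate 1 (95% exact interval 12.1 to 24.6) and 30.3 times in replicate 2 (19.8 to 48.6), a mean of 23.6 ± 9.41. Mir29c had 26.2 times the counts of Mir29b-2 in replicate 1 (15.1 to 49.8) and 147 times in replicate 2 (40.3 to 1220), a mean of 86.6 ± 85.4. The second ratio of Mir29c rests on 2 counts of Mir29b-2, and without replicate 2 the ratio is 26.2. Between the loci that encode the same mature strand, Mir29b-1 had 2.69 times the counts of Mir29b-2 in replicate 1 (1.39 to 5.55) and 11.0 times in replicate 2 (2.70 to 96.5). In all 3 ratios the order was the same in both libraries.

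To place these differences, every other pair of neighbouring microRNA genes on 1 strand within 10 kb was taken, provided that each gene passed 10 CPM in each library. The 76 such pairs had a median absolute log2 ratio of mean CPM of 2.40, with quartiles of 1.17 and 3.76. The pair of Mir29a and Mir29b-1 stood at 4.51, farther apart than 60 of the 76 pairs (78.9%). The pair of Mir29c and Mir29b-2 stood at 5.51, farther apart than 67 of the 76 (88.2%). Neither miR-29 pair passes the 10 CPM minimum itself, since its miR-29b gene is below it, so a pair of this kind could not have been among the 76.

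A wider set of 93 neighbouring pairs required only 1 gene to reach 10 CPM and the other to have a count in both libraries. Its median absolute log2 ratio was 3.04 and its upper quartile 5.10. The pair of Mir29a and Mir29b-1, at 4.51, lay below that quartile, and the pair of Mir29c and Mir29b-2, at 5.51, above it. This wider set was then split by the RefSeq mature sequences. In 17 pairs, the miR-29 pairs not counted, exactly 1 of the genes encodes a mature sequence that lies at another locus too. That gene was the lower of the pair in 15 of the 17, with a median absolute log2 ratio of 6.13. In the 68 pairs in which neither gene was marked in this way, the median was 2.54. The marking needs an exact match of the annotated sequences and may miss loci. Mirlet7a-1 is marked, but Mirlet7a-2, the neighbour of Mir100, is not. Pairs not matched in the RefSeq sequences, such as Mir133a-1 with Mir1a-2, were left out of the split. Some pairs share a gene, so they are not independent, and this is a description of these libraries. In both miR-29 clusters the gene whose mature sequence lies at another locus was likewise the lower one. The part that reads mapped to several loci have in these differences was not tested.

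**Figure D3:**
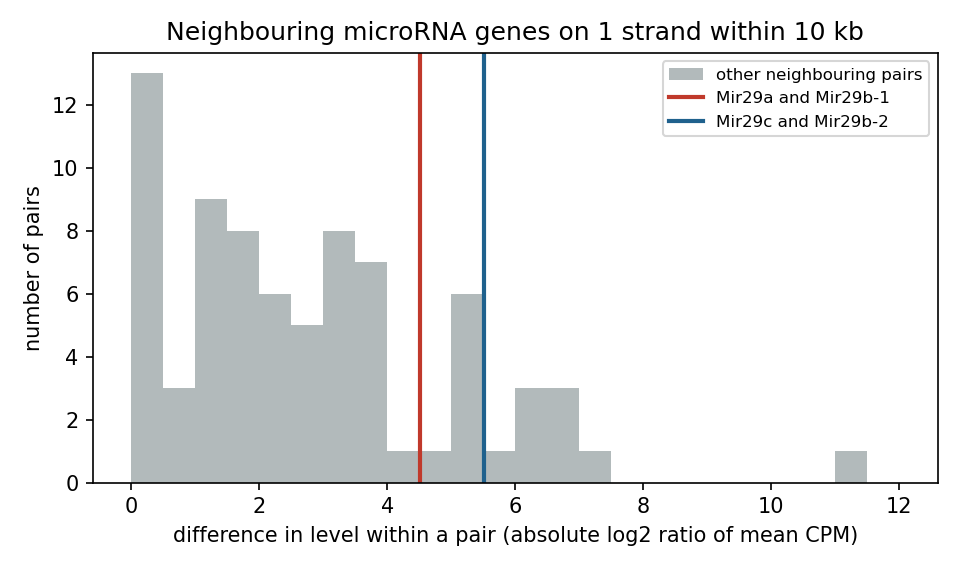
Number of neighbouring microRNA pairs (vertical axis) by the absolute log2 ratio of mean CPM within the pair (horizontal axis), for the 76 other pairs on 1 strand within 10 kb with both genes at 10 CPM or more. The vertical lines mark Mir29a with Mir29b-1 at 4.51 and Mir29c with Mir29b-2 at 5.51, both above the upper quartile of 3.76 of these pairs. In the wider set of 93 pairs with only 1 gene required to reach 10 CPM, the upper quartile was 5.10, between the lines.

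For the comparison of the replicates, a two-sided exact binomial test was run per gene on library sizes scaled with TMM (trimmed mean of M-values). It covers counting error only and compares these 2 libraries. A log2 ratio is replicate 2 minus replicate 1. Of the 258 genes tested, 131 (50.8%) passed a Benjamini-Hochberg adjusted p of 0.05, of which 49 (19.0%) were higher in replicate 2 and 82 lower. Of the members, 2 were tested and 1 passed. Mir29a was higher in replicate 2 by a log2 ratio of 0.43 (0.27 to 0.59), with an adjusted p of 5.15e-07 in the exact binomial test. Mir29c had a log2 ratio of 0.05 (-0.18 to 0.28) and an adjusted p of 0.762. A call of this kind was made for 50.8% of the genes tested, so the call of Mir29a is near the background of these libraries. At least 2-fold differences were called for 3 genes (1.16%), none of them a member.

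The exact test of edgeR was also run, with a common coefficient of variation of 12.8%. That spread is estimated from the same difference between the 2 libraries that is then tested, so few calls are built into it, and it does not show that a gene did not differ. It called 3 of the 258 genes and none of the members. The members at an unadjusted p under 0.05 were then 0, and Mir29a had a p of 0.121 and an adjusted p of 0.95. The split of the 131 calls into 49 higher and 82 lower depends on the scaling. It was 67 and 66 with library sizes from total counts, 65 and 70 with DESeq2 size factors and 62 and 72 with TMM over the tested genes only. The log2 ratio of Mir29a lay between 0.43 and 0.48 under every scaling and filter tried.

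The difference of Mir29a was larger in size than that of most genes tested. The median absolute log2 ratio was 0.18, and 35 of the 258 genes (13.6%) differed by more than Mir29a. For Mir29c, 216 of the 258 (83.7%) differed by more. Some of the marker lists differed between the same libraries. Of all 258 genes, 19.0% were called higher in replicate 2 and 50.8% in either direction, and 82 of the 258 were called lower. The split into higher and lower depends on the scaling. The connective tissue markers summed to 22766 and 20795 CPM in the replicates, with 3 of 4 tested lower in replicate 2. The red cell markers summed to 384 and 571 CPM, with 2 of 2 higher, and the neuron markers to 52.1 and 133 CPM, with 3 of 3 tested higher and Mir124a-1, Mir124a-2, Mir124a-3, Mir9-1 and Mir9-2 at 0 in both. The Mir9 genes encode a mature sequence that lies at another locus too, and Mir124a has more than 1 gene. Reads that fit several loci were given to no gene, so these 0 counts do not show that the microRNAs were absent. The endothelial marker Mir126a was lower, and of the 2 smooth muscle markers 1 was lower and none higher. Of 7 skeletal muscle markers tested, 2 were higher and 2 lower, and none of 4 leukocyte markers, 1 glia marker and 1 liver marker was called. The part of these markers in the difference of Mir29a was not tested.

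The miR-29b genes missed the 10 CPM minimum. Mir29b-1 had a log2 ratio of -0.41 (-1.24 to 0.40) and Mir29b-2 one of -2.44 (-5.63 to -0.29), from 13 and 2 counts. When every gene with a count was tested (629 genes), the adjusted p of the exact binomial test was 0.726 for Mir29b-1 and 0.0762 for Mir29b-2. Neither passed, and the interval of Mir29b-2 shows how little its counts can resolve.

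**Figure D4:**
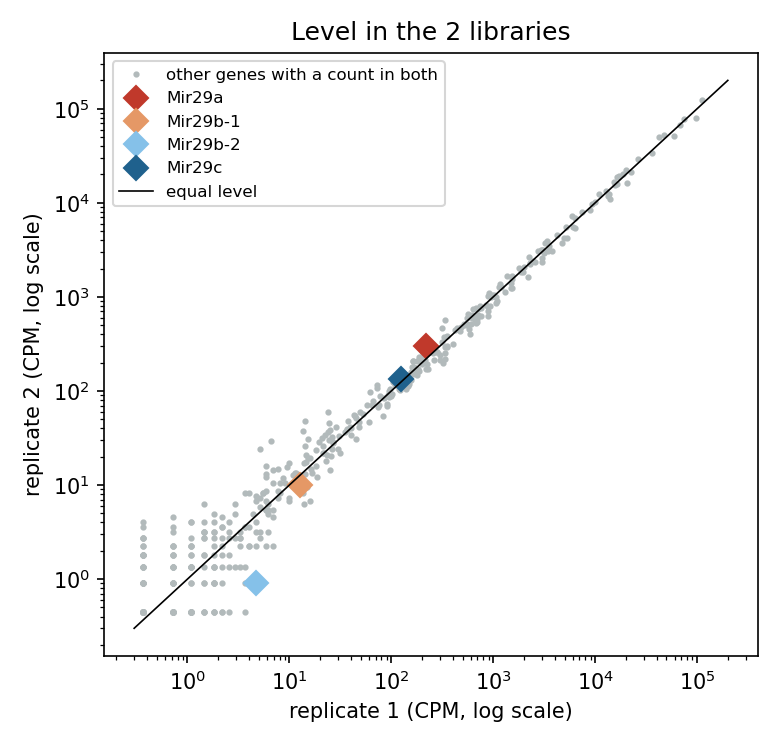
Level in replicate 2 against level in replicate 1 (CPM, log scales) for genes with a count in both libraries, with the line of equal level and the miR-29 genes as diamonds. Mir29a lies above the line, Mir29c close to it, and Mir29b-2, with 2 counts in replicate 2, well below it.

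Genes of like level were taken as the 3 next above and the 3 next below each member in mean CPM, over 2 libraries and among the 258 genes that pass 10 CPM in each. Above Mir29a (259 ± 59.9 CPM) were Mir543 at 270.1 ± 15.5 CPM, Mir323 at 264 ± 3.88 CPM and Mir410 at 261 ± 86.2 CPM, all of the imprinted Dlk1-Dio3 cluster. Below it were Mir125b-1 at 256 ± 1.02 CPM, Mir18 at 256 ± 59.8 CPM and Mirlet7a-1 at 248 ± 19.1 CPM. All 6 differ from Mir29a by less than its SD. Above Mir29c (129 ± 6.13 CPM) were Mir193b, Mir671 and the epithelial microRNA Mir203, between 129 and 130 CPM by mean, and below it Mir339 at 123 ± 3.28 CPM, Mir24-2 at 122 ± 22.8 CPM and the liver microRNA Mir122 at 120.2 ± 16.8 CPM. Each of these 6 differs from Mir29c by less than its own SD or that of Mir29c. Mir29b-1 lay between Mir5113 at 11.4 ± 1.41 CPM and Mir3074-1 at 10.5 ± 0.119 CPM, and Mir29b-2 below all 258 genes.

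Other microRNAs known to bear on collagen, TGF-beta signalling or connective tissue were compared through a list of 26 genes. All 26 were detected and 19 passed 10 CPM in each library. The list held 6.45% and 6.32% of assigned counts. Its median level was 98.7 CPM, with 9 genes above Mir29a and 17 below. The 6 highest were Mir26b at 18297 ± 1423 CPM, Mir21a at 16074 ± 598 CPM, Mir30d at 10068 ± 50.1 CPM, Mir30a at 8632 ± 485 CPM, Mir214 at 4223 ± 728 CPM and Mir30e at 3430 ± 539 CPM. Mir21a, known to promote fibrosis, thus had 64.1 ± 17.1 times the counts of Mir29a. Mir214, transcribed with Mir199a-2 in mesenchymal cells, had 17.1 ± 6.77 times. Between the replicates, 2 of the 19 tested were higher in replicate 2 and 7 lower, against 50.8% called in either direction among all 258 genes. The median log2 ratio of the list was -0.04, and that of all 258 genes was -0.04 too.

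A second list held 16 microRNAs of muscle differentiation, all of them detected and 14 of them past 10 CPM in each library. The list held 20.4% and 21.5% of assigned counts, and 8 of its genes lay above Mir29a and 8 below. The highest were Mir378a at 117291 ± 8973 CPM and Mir206, a microRNA of skeletal muscle, at 68099 ± 267 CPM. Mir322, which favours the exit of myoblasts from the cell cycle, was at 13175 ± 388 CPM and Mir27b, which acts on the progenitor factor Pax3, at 4750 ± 687 CPM. Mir214, which is on both lists, and Mir486 at 611 ± 55.7 CPM completed the 6 highest. Mir206 had 270.4 ± 63.6 times the counts of Mir29a. Of the 14 tested, 3 were higher in replicate 2 and 4 lower, a share near the 50.8% called among all 258 genes, with a median log2 ratio of -0.05. Both lists hold loci with a mature sequence at another locus, and those carry the same limit as the miR-29b genes.

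No messenger RNA was measured here, so the link from the family to collagen can be shown by sequence only. The letters TGGTGCT, the reverse complement of the seed, were searched on the transcript strand of the annotated 3′ UTR of every protein-coding gene in GENCODE vM21, taking the longest UTR of a gene and counting overlapping matches. Of 20980 genes, 2740 (13.1%) held at least 1 match and 424 (2.02%) at least 2, which is 0.106 matches per kb of UTR. Of 49 listed matrix genes and reported targets with a UTR, 41 (83.7%) held a match and 20 (40.8%) at least 2, at 0.799 per kb. The median UTR was 1635 bases for the list and 954 for all genes, so the shares are not at equal length. The list was put together from genes reported as targets, so its share is not independent evidence.

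Of the 22 collagen genes on the list, 19 (86.4%) held a match and 8 at least 2, at 1.05 matches per kb. The most matches on the list were found in Tet3 with 8, Tet1 with 7, Dnmt3a with 5 and Tet2 with 5, which encode enzymes that oxidise or add DNA methylation. Col5a1 and Col4a3, collagens of fibrils and of basement membranes, followed with 4 each. The 4 matches of Col5a1 are shown as windows of 22 bases on the plus strand of chromosome 2, with the match in capitals and the last base opposite base 1 of the microRNA.
Col5a1, chr2:28037990-28038011: taactatgaacattTGGTGCTg
Col5a1, chr2:28038020-28038041: acacttgtctcttgTGGTGCTa
Col5a1, chr2:28038336-28038357: ttgctgaatgtttgTGGTGCTa
Col5a1, chr2:28038708-28038729: acagagagtcactcTGGTGCTt
Since the seed is the same in all members, these letters pair alike with the seeds of miR-29a-3p, miR-29b-3p and miR-29c-3p.

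The fibrillar collagens of muscle connective tissue were looked up beyond the naming rule. Col1a1 and Col3a1, chains of collagen types that make up most of the fibrils, held 1 match each.
Col1a1, chr11:94952524-94952545: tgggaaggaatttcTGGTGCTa
Col3a1, chr1:45348968-45348989: tcaaaatgtctcaaTGGTGCTa
Both are on the plus strand. No match was found in the annotated 3′ UTRs of Col1a2, Col6a1 and Col19a1, which says only that these letters are not in the UTR searched. A match is a description of the sequence and not a measured site.

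**Figure D5:**
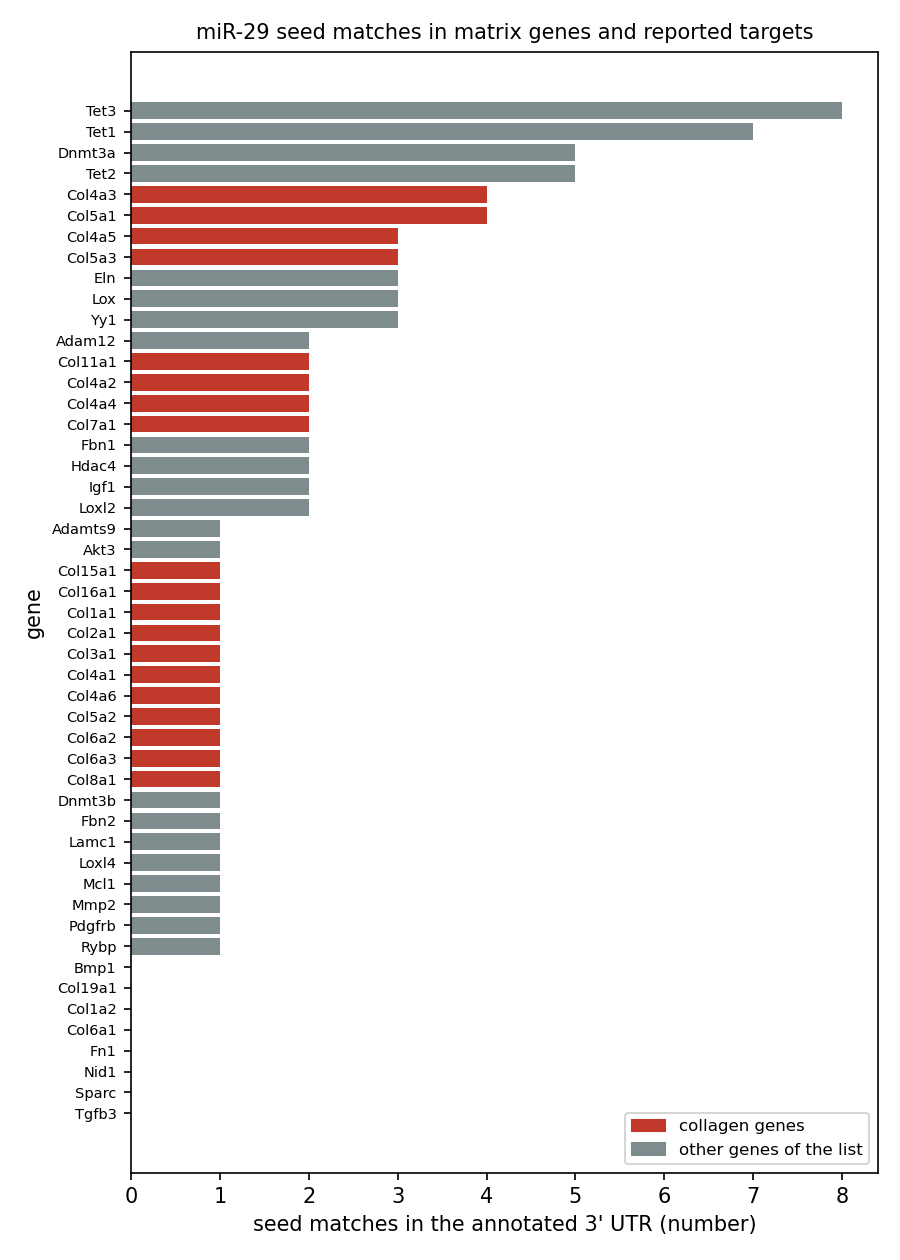
Number of seed matches in the annotated 3′ UTR (horizontal axis) of each of 49 matrix genes and reported targets (vertical axis), with collagen genes in red and the others in grey. Tet3 holds 8 matches, Col5a1 and Col4a3 hold 4, and 8 genes hold none.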

How the data were processed

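The authors deposited whole-number read counts per microRNA gene for each of the 2 libraries, not normalized, on either strand, the gene's own strand and the opposite strand. Per the labels, the build was mm10 and the annotation M21. For the aligner, counter and trimming of adapters, tools and versions are not given in the sources used here. Own-strand counts were used. Lines that name no gene held 72.7% and 73.0% of reads and were left out of library sizes and tests. CPM was computed from these counts, and library sizes were scaled with TMM of edgeR 4.0.16 over the whole table (R 4.3.3; DESeq2 1.42.0 as an alternative). The exact binomial test was run on simulated counts that held counting error only. That run does not show how often the test makes false calls at the spread of these libraries. No quasi-likelihood fit was possible, since 1 library a replicate leaves no residual degrees of freedom.

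All 2202 identifiers were found in GENCODE vM21, and 1018 symbols in the RefSeq table of mature sequences, the 4 members among them. For 3′ UTRs, transcripts were limited to protein-coding ones tagged basic, after the first matches had been seen, and 1 of the 50 listed genes, Col21a1, was not matched. TMM over the whole table was preferred to TMM over the tested genes after both had been computed. The genes named were the 4 members, 3 genes on either side of each in level, the 6 highest of each list at 10 CPM, and the 6 genes with most seed matches. Other genes were named after their values were seen. PCR copies of 1 molecule are counted as separate reads, so intervals cover counting error only. The members and lists were chosen with earlier results of these data known.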

Additional observations from a re-analysis of the deposited data

How the results depend on the processing

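Of 80 values recomputed under another setting, 66 stayed the same, 12 moved by at least the SD between the libraries and 2 were weaker. A value with a wide SD stays the same by this rule even after a large change. With library size from all reads, Mir29b-2 went from 2.82 to 0.768 CPM and counted as the same, while Mir29a went from 259 to 70.2 CPM and counted as moved. Log2 ratios of miR-29b genes that were not tested counted as the same where their direction held. The 66 are therefore no measure of stability. The weaker ones were both in the exact test of edgeR, where Mir29a was no longer called. A change of direction was looked for only in the log2 ratios between the replicates, and none of them changed direction. With 2 libraries, a level, share or ratio with 1 left out always lies within the SD of their mean, and ratios of members are the same on either strand because their counts are, so these settings do not show stability. The summed share of the family, 0.0402%, was 0.0523% with counts on either strand and 0.0109% of all reads, which changes the total and not the members' counts, and 0.0358% to 0.0445% with 1 library left out. On the same alternatives Mir29a stood at 337 and 70.2 CPM. Of the members, 1 differed between the replicates in the exact binomial test and 0 in the exact test of edgeR, which called 3 of the 258 genes against 131 and takes its spread from the difference it tests. The pair of Mir29a and Mir29b-1 was farther apart than 78.9% of pairs, 82.0% within 2 kb, 68.8% with only 1 gene at 10 CPM, and 77.6% to 78.9% with 1 library left out. The pair of Mir29c and Mir29b-2 was farther apart than 88.2% of pairs, 78.5% with only 1 gene at 10 CPM, and 80.3% to 98.7% with 1 library left out. Without a library there is no comparison of replicates. No paired analysis was possible because there is 1 group. The values of Mir29b-2 rest on 13 and 2 counts. TMM over the tested genes only was not a planned setting. TMM over the whole table was made the main scaling after both had been computed.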
